A study of Mus musculus with 4 samples.

Results

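The transcripts of the mitochondrial genome were examined in NK (natural killer) and T lymphocytes that infiltrated CT26 tumours, a mouse colon carcinoma line grown under the skin of syngeneic BALB/C mice. The genes were taken as the rows of the deposited expression table whose symbol starts with mt-, which gave 37 of 55450 genes. They comprise 2 ribosomal RNAs, 13 messenger RNAs and 22 transfer RNAs, the full set of genes annotated on the mitochondrial chromosome in GENCODE M21 (GRCm38). The series holds 4 RNA sequencing libraries, namely NK cells from pools 1 and 2 and T cells from pools 1 and 2. Pool 1 combined tumours of 4 mice and pool 2 those of 6 mice, all tumour-bearing and of 1 strain. Both cell types were stained and sorted by flow cytometry from mechanically dissociated tumours after Percoll enrichment of immune cells. The sources used here do not give the staining panel, or the age, sex and any modified allele of the mice. Each group therefore has 2 pools, and a pool of mice is the replicate.

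Mammalian mitochondria keep a small circular genome that encodes core subunits of the respiratory chain and of ATP synthase, together with the ribosomal and transfer RNAs needed to translate them inside the organelle. Both strands are transcribed as long precursors. The tRNAs punctuate these precursors, and their excision releases the rRNAs and mRNAs between them. In lymphocytes, mitochondrial respiration is one of the energy sources drawn on during activation and in tumours.

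The libraries held 2228226 and 2665928 gene-assigned reads in NK pools 1 and 2, and 2067728 and 2893240 in T pools 1 and 2. The labels were checked against lineage markers. The 5 NK markers Ncr1, Klrb1c, Klrk1, Eomes and Tyrobp summed to 1820 and 1560 normalized CPM in the NK libraries, while the T libraries had 145 and 102. The 5 T markers Cd3e, Cd3g, Trac, Cd4 and Cd8a summed to 59.4 and 41.8 in the NK libraries, while the T libraries had 1850 and 1590. Normalized CPM are reads per 1 M of a scaled library size. The 10 macrophage markers differed between libraries, with sums of 984 and 207 normalized CPM in the NK libraries and 238 and 25.2 in the T libraries. All 10 had reads in every library except T pool 2, where 6 did. The 3 endothelial markers summed to 146 and 250 in the NK libraries and 65 and 91.4 in the T libraries, with Cdh5 at 0 in all 4. Only 1 of the 3 had reads in NK pool 1 and in T pool 2, and 2 had reads in NK pool 2 and T pool 1. The 4 neutrophil markers summed to 22.8 and 23.4 in the NK libraries and 92.5 and 12.8 in the T libraries. Of 4 epithelial markers that could stand for tumour cells, Krt8, Krt18 and Krt19 were listed at 0 in all libraries. The remaining marker, Epcam, stood at 0 and 2.48 in the NK libraries and at 6.61 and 2.83 in the T libraries. The 5 red blood cell markers summed to 0 and 51.1 in the NK libraries and 0 and 4.61 in the T libraries. The 4 fibroblast markers summed to 8.95 and 14.9 in the NK libraries and 0.551 and 0 in the T libraries. The part of these other cell types in the results below was not tested.

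Mitochondrial genes took a large part of all reads, and nearly all of that was rRNA as counted here. They accounted for 17.97% and 17.52% of the reads of NK pools 1 and 2, against 20.42% and 20.57% of the reads of T pools 1 and 2 (exact 95% binomial intervals within 0.1 percentage points of each value, covering counting error only). The share was lower in both NK libraries, with a mean of 17.75% ± 0.32 in NK libraries and 20.5% ± 0.11 in T libraries (SD, n = 2 each), and the groups did not overlap. The NK to T ratio was 0.880 within pool 1 and 0.852 within pool 2. These shares count the 24 of 37 genes with reads, since 6 mRNAs and 7 tRNAs were listed at 0 in every library. The mRNA share therefore stands for the 7 mRNA genes with reads and not for all 13. A comparison of 2 libraries with 2 cannot go below p = 0.333 in a two-sided exact permutation test, so no p is given for a share. In bulk samples of this kind, fewer cells of a type and less RNA per cell cannot be told apart.

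Within the mitochondrial genes, the difference lay in the rRNAs. Their share was 16.03% and 15.74% of reads in NK cells and 19.27% and 18.46% in T cells, with a ratio of 0.832 in pool 1 and 0.853 in pool 2. The mRNAs took 1.88% and 1.72% of reads in NK cells, and 1.09% and 2.07% in T cells. The T libraries thus lay on either side of the NK libraries, and the NK to T ratio was 1.73 in pool 1 and 0.834 in pool 2. The direction rested on single libraries: the log2 ratio of NK to T means was 0.19, and it was -0.20 without T pool 1 and 0.73 without T pool 2. Transfer RNAs took 0.0669% and 0.0532% of reads in NK cells and 0.0621% and 0.0476% in T cells. The tRNA share was higher in pool 1 than in pool 2 in both cell types. Its NK to T ratio was 1.08 within pool 1 and 1.12 within pool 2. The log2 ratio of the tRNA means, 0.13, became -0.045 without NK pool 1 and -0.048 without T pool 2, where the pools no longer match between the groups. With reads on Gm42418, mt-Rnr1 and mt-Rnr2 left out of the library total, the mRNA share was 2.98% and 2.82% in NK cells and 2.28% and 3.61% in T cells. T pool 1 was still the lowest library and T pool 2 the highest, but the log2 ratio of NK to T means turned to -0.023. On this total the tRNA ratio turned to -0.146. Set against the same reads outside ribosomal RNA genes, the mitochondrial rRNA reads amounted to 25.4% and 25.7% in NK cells and 40.5% and 32.2% in T cells. Gm42418, a gene model that overlaps a nuclear ribosomal RNA repeat, took 20.8% and 23.1% of reads in the NK libraries and 33.1% and 24.2% in the T libraries. Like that of the mitochondrial rRNAs, its share was lower in both NK libraries than in both T libraries. It was highest in T pool 1, the library with the lowest mitochondrial mRNA share. The part of Gm42418 in the mitochondrial shares was not tested.

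**Figure D1:**
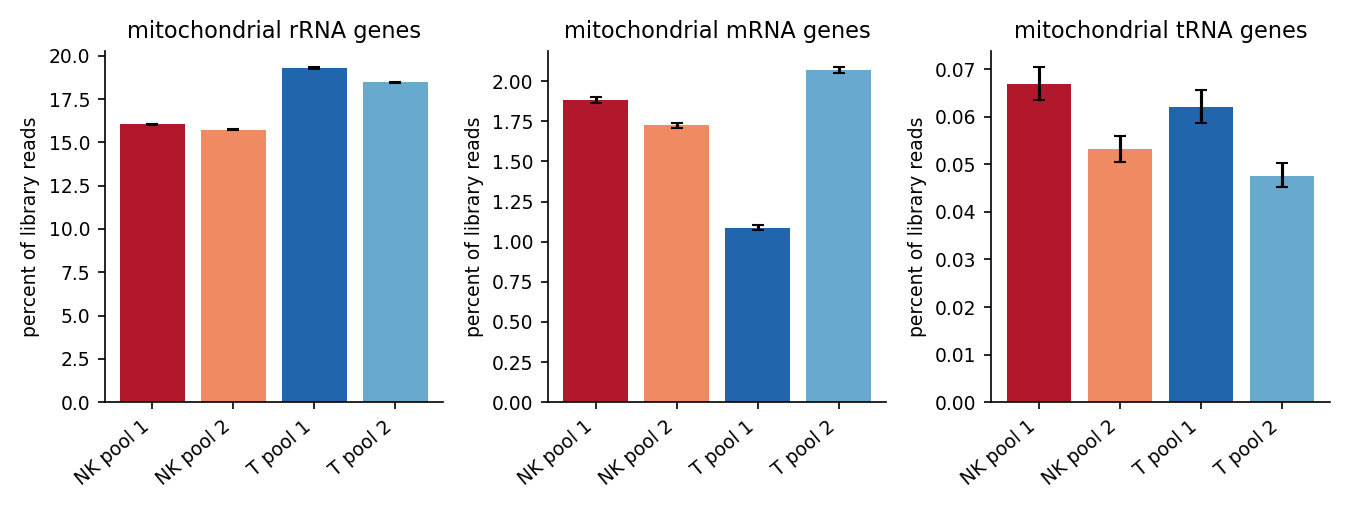
Share of library reads (percent, vertical axes start at 0) on mitochondrial rRNA, mRNA and tRNA genes in NK pools 1 and 2 and T pools 1 and 2; bars are single libraries and error bars exact 95% binomial intervals. The rRNA share was lower in both NK libraries (16.03% and 15.74%) than in both T libraries (19.27% and 18.46%), whereas the mRNA shares of the T libraries lay on both sides of the NK shares. The mRNA panel stands for the 7 of 13 mRNA genes with reads.

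None of the mitochondrial genes passed the test between NK and T cells. Of the 37 genes, 22 had a mean of at least 1 normalized CPM and were tested, together with all other genes above this level. By limma, 0 of the 22 had a Benjamini-Hochberg adjusted p under 0.05, where 2.33% of the 12128 genes tested did (1.24% higher and 1.09% lower in NK cells). At an unadjusted p under 0.05 the count was 0 as well, where 12.8% of all genes tested passed (6.51% higher and 6.3% lower in NK cells). EdgeR's quasi-likelihood test, which called 2.67% of all genes, DESeq2 (3.55%) and limma with the pool as a replicate block (8.24%) also called 0 of the 22, although DESeq2 gave mt-Te no adjusted p. With the block the lowest adjusted p among them was 0.314. The median log2 fold change (NK minus T, on log2 of the value plus 1) was 0.06 over the 22 genes and 0.02 over all genes tested. NK and T values did not overlap for 6 of the 22 genes (27.3%), whereas this held for 43.4% of all genes tested. A p above the threshold does not show equal levels, and the intervals given below are wide.

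The 2 rRNAs were the most abundant members. The gene mt-Rnr2 encodes the RNA of the large mitochondrial ribosomal subunit (chrM:1094-2675, plus strand). It stood at 106856 and 114352 normalized CPM in NK cells and at 158338 and 143575 in T cells. The RNA of the small subunit, mt-Rnr1 (chrM:70-1024, plus strand), stood at 38390 and 34422 in NK cells and at 61066 and 45638 in T cells. For both genes each NK value was below each T value. The log2 fold change was -0.45 for mt-Rnr2 (SE 0.46, 95% interval -1.47 to 0.58, limma adjusted p = 0.742) and -0.54 for mt-Rnr1 (SE 0.40, interval -1.43 to 0.35, adjusted p = 0.636). On plain shares of the library total these values were -0.225 and -0.315, while the median of all genes moved to 0.215. Per kilobase of gene, mt-Rnr2 exceeded mt-Rnr1 in every library, by ratios of 1.68 and 2.01 in NK pools 1 and 2 and of 1.57 and 1.90 in T pools 1 and 2. The ratio was higher in pool 2 than in pool 1 for both cell types, and within each pool it was higher in NK cells.

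**Figure D2:**
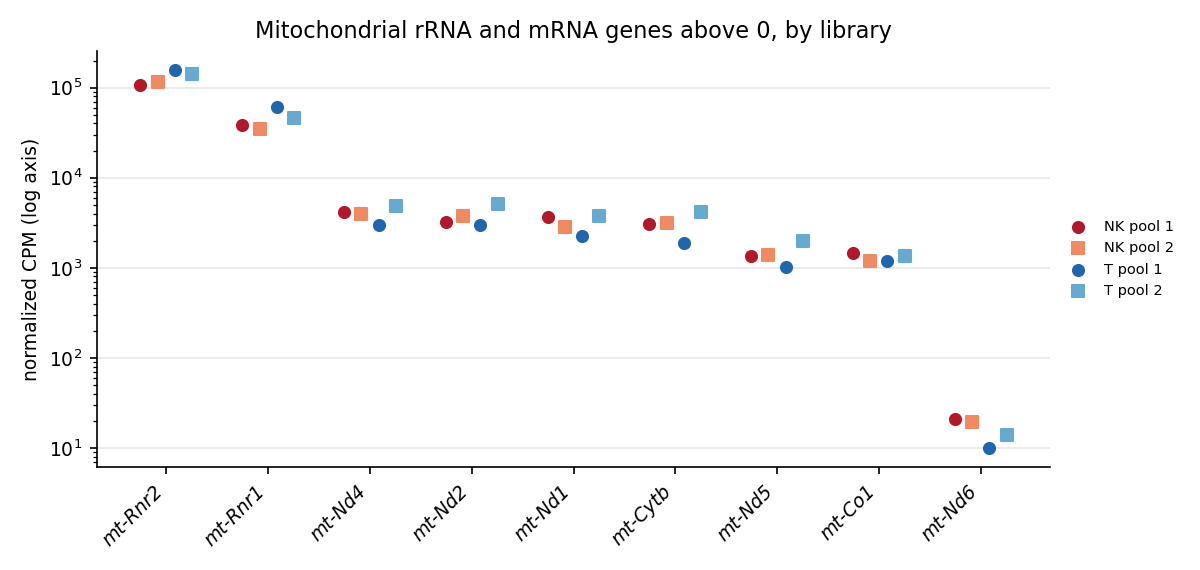
Normalized CPM (log axis) of the 2 rRNA genes and the 7 mRNA genes with reads, in order of their mean; each point is a library, red for NK and blue for T, with circles for pool 1 and squares for pool 2. In 6 of the 7 mRNAs T pool 1 and T pool 2 lie on opposite sides of the NK library of the same pool, and mt-Nd6 lies about 2 orders of magnitude below the other mRNAs at 9.91 to 20.7 normalized CPM.

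Of the 13 mRNAs, 7 had reads and 6 were listed at 0 in all 4 libraries. The mRNAs listed at 0 include subunits of cytochrome c oxidase and of ATP synthase, so the complexes cannot be ranked by these reads. Complex I, the NADH dehydrogenase that feeds electrons into the respiratory chain, held most of the mRNA reads that were counted. Its membrane-arm subunit mt-Nd4 (chrM:10167-11544) stood at 4209 and 3923 normalized CPM in NK cells and at 3006 and 4836 in T cells. Another membrane-arm subunit, mt-Nd2 (chrM:3914-4951), stood at 3233 and 3787 in NK cells and at 3001 and 5131 in T cells. The subunit next to the quinone site, mt-Nd1 (chrM:2751-3707), stood at 3685 and 2866 in NK cells and at 2265 and 3717 in T cells. In all 3 the T values enclosed both NK values, with T pool 1 lowest and T pool 2 highest. The log2 fold changes were 0.09 for mt-Nd4 (95% interval -0.64 to 0.82), -0.17 for mt-Nd2 (-0.92 to 0.59) and 0.16 for mt-Nd1 (-0.59 to 0.91), with limma adjusted p from 0.887 to 0.939. The value of mt-Nd2 turned to 0.058 on plain shares of the library total.

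A further proton-pumping subunit of complex I, mt-Nd5 (chrM:11742-13565), followed the same order, at 1357 and 1377 normalized CPM in NK cells and at 1014 and 1973 in T cells. Its log2 fold change was -0.05 (interval -0.82 to 0.72), and 0.17 on plain shares. The cytochrome b of complex III, mt-Cytb (chrM:14145-15288), stood at 3073 and 3143 in NK cells and at 1882 and 4184 in T cells. Its spread in T cells, 3033 ± 1628 (SD, n = 2), was far wider than the 3108 ± 49.5 in NK cells. The catalytic subunit of cytochrome c oxidase, mt-Co1 of complex IV (chrM:5328-6872), stood at 1473 and 1181 in NK cells and at 1193 and 1351 in T cells. The T values enclosed the NK values of mt-Cytb and the NK values enclosed the T values of mt-Co1, with log2 fold changes of 0.15 for mt-Cytb (interval -0.70 to 0.99) and 0.06 for mt-Co1 (-0.59 to 0.70).

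Among the mRNAs with reads, mt-Nd6 alone had no overlap between NK and T libraries, although it did not pass the test. It encodes a complex I subunit and is the only mRNA gene on the minus strand of the annotation (chrM:13552-14070), where 8 tRNA genes also lie. It stood at 20.7 and 19.5 normalized CPM in NK cells and at 9.91 and 13.8 in T cells. Behind these values were 51 and 55 reads in the NK libraries and 18 and 39 reads in the T libraries. The log2 fold change was 0.73 (SE 0.50, interval -0.37 to 1.83, limma adjusted p = 0.591). As a share of all counted mitochondrial mRNA reads, which needs no scaling between libraries, mt-Nd6 took 0.122% (exact 95% interval 0.0906 to 0.16) and 0.12% (0.0901 to 0.156) in NK cells. In T cells it took 0.0801% (0.0475 to 0.127) and 0.0652% (0.0463 to 0.0891). The counting intervals of T pool 2 and both NK libraries did not overlap, whereas that of T pool 1 overlapped all others. Per kilobase, mt-Nd5 exceeded mt-Nd6, which it overlaps by 14 bases on the opposite strand, by 18.6 and 20.1 times in NK cells and by 29.1 and 40.6 times in T cells. The sources used here do not give the strand setting of the counting, so reads of the overlapped bases and of precursors from the other strand cannot be assigned with certainty.

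For the 6 plus-strand mRNAs with reads, the share of each in the mitochondrial mRNA reads varied less between libraries than the total did. These shares and totals cover only the 7 mRNA genes with reads. The share of mt-Nd4 was 24.7% and 24.1% in NK cells and 24.3% and 22.8% in T cells. The share of mt-Nd5 was 7.96% and 8.45% in NK cells and 8.20% and 9.30% in T cells. For mt-Cytb it was 18.0% and 19.3% in NK cells and 15.2% and 19.7% in T cells, and for mt-Co1, the most variable of the 6, it was 8.64% and 7.25% in NK cells and 9.64% and 6.37% in T cells. In contrast, the mRNA totals were 17052 and 16298 normalized CPM in NK pools 1 and 2, and 12371 and 21206 in T pools 1 and 2. The mean levels per kilobase over the 4 libraries fell in the order mt-Nd2 (3649 normalized CPM per kilobase), mt-Nd1 (3274), mt-Nd4 (2898), mt-Cytb (2684), mt-Co1 (841), mt-Nd5 (784) and mt-Nd6 (30.8). Neighbours among the first 4 overlapped in their library values, as did mt-Co1 and mt-Nd5, whereas mt-Cytb lay above mt-Co1 in every library. The level of mt-Nd6 was below all others in every library.

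**Figure D3:**
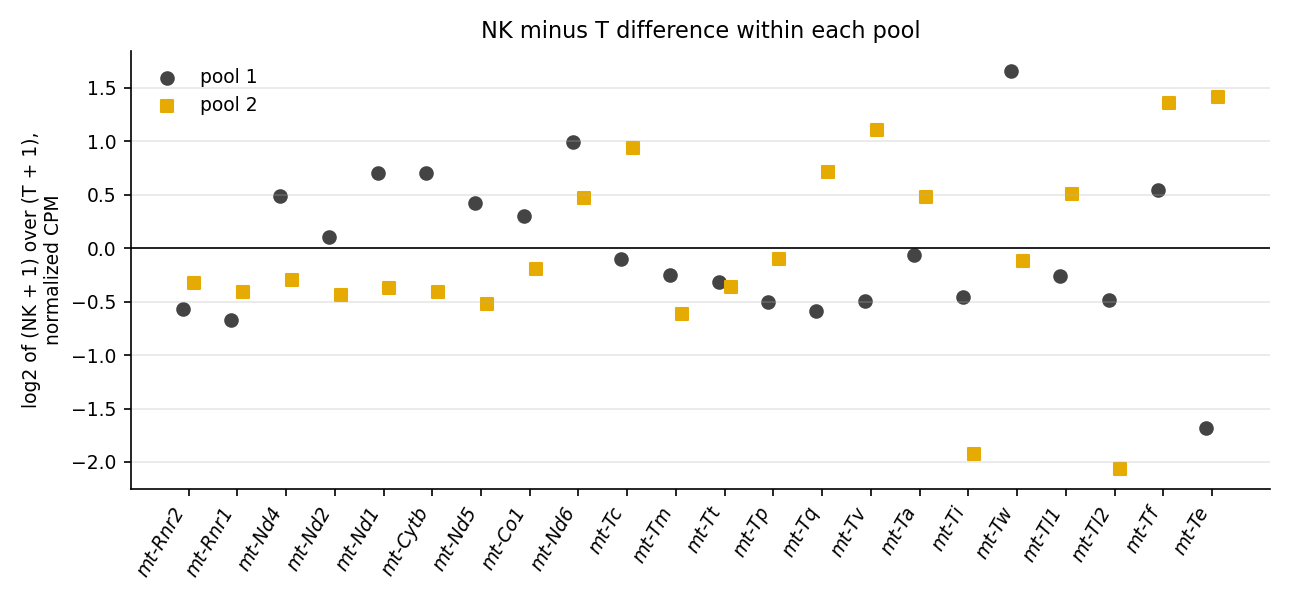
Log2 of (NK + 1) over (T + 1) in normalized CPM for the 22 tested mitochondrial genes, grouped as rRNA, mRNA and tRNA; circles are pool 1 and squares pool 2, and the line at 0 marks equal levels. Both rRNAs lie below 0 in both pools, and 6 of the 7 mRNAs lie above 0 in pool 1 and below 0 in pool 2.

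Within the pools, the mRNAs split in the same way. For 6 of the 7 mRNAs the NK level was above the T level in pool 1 and below it in pool 2, a pattern seen in 18.4% of all genes tested. These mRNAs are cut from shared precursors and are not independent of each other. The mt-Cytb level showed NK to T ratios of 1.63 in pool 1 and 0.751 in pool 2, and mt-Nd1 of 1.63 and 0.771. The exception was mt-Nd6, with ratios of 2.09 and 1.41.

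The 6 mRNAs listed at 0 lie side by side. They encode mt-Co2 and mt-Co3, the other mitochondrial subunits of cytochrome c oxidase, mt-Atp6 and mt-Atp8 of ATP synthase, and mt-Nd3 and mt-Nd4l of complex I. With the tRNA genes mt-Ts1, mt-Td, mt-Tk, mt-Tg and mt-Tr they form a run of 11 consecutive genes from mt-Ts1 to mt-Nd4l (chrM:6870-10173), every one listed at 0 in all 4 libraries. The genes on either side of the run, mt-Co1 and mt-Nd4, had reads in every library. Respiring cells in general use these subunits, so the entries are given only as listed at 0 and no level is drawn from them.

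The sequences of mt-Co2, mt-Atp6, mt-Co3, mt-Nd3 and mt-Nd4l, all in the run, recur in the nuclear genome. Unprocessed pseudogenes on the minus strand of chromosome 1, between 24611535 and 24616197 (GRCm38), match mt-Co1, mt-Co2, mt-Atp6, mt-Co3, mt-Nd3, mt-Nd4l and mt-Nd4 in the same order. The start of mt-Co2 and of its copy Gm28661 is shown because the pair illustrates how close these copies are; capitals would mark bases that differ, and there are none in these 60 bases.
mt-Co2 (chrM:7013-7072, plus strand): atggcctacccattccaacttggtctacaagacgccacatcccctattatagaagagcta
Gm28661 (chr1:24615506-24615565, minus strand): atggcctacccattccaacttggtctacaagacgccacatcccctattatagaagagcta
Over the 681 bases of Gm28661 the identity with mt-Co2 was 100%. The copies of mt-Atp6 (Gm10925), mt-Co3 (Gm28437), mt-Nd4l (Gm10222) and mt-Nd4 (Gm28439) also held no difference over the 678, 783, 294 and 876 bases compared. The copy of mt-Nd3, Gm28438, had 1 difference in 345 bases, T3C, counted from 1 at the first base of mt-Nd3 with the mitochondrial base first. The copy of mt-Co1, Gm29216, covered the last 492 bases of the gene and had 6 differences, all between T1056A and A1066T. Of the 6 intervals between neighbouring copies, 5 had the same length as in the mitochondrial genome, and the remaining one was 74 bases on chromosome 1 and 73 bases in the mitochondrial genome. These are reference sequences of C57BL/6J, and those of BALB/C were not compared here.

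Windows of 100 bases were compared with all other annotated transcripts. Exact matches were found for 99.5% of the windows of mt-Co2, 99.5% of mt-Atp6, 99.9% of mt-Co3, 97.6% of mt-Nd3 and 98.5% of mt-Nd4l, all of them listed at 0. Among genes with reads the share was 60.8% for mt-Nd4, 30.8% for mt-Co1 and 3.19% for mt-Nd2. For mt-Nd1, mt-Nd5, mt-Nd6, mt-Cytb and both rRNAs it was 0%. The mt-Atp8 gene had no window in common with an annotated transcript. It lies mostly in the 233 bases between the stretches of mt-Co2 and mt-Atp6 that the copies cover, an interval of the same length on chromosome 1 that carries no annotated copy and whose sequence was not compared here. The tRNA genes of the run, mt-Ts1, mt-Td, mt-Tk, mt-Tg and mt-Tr, are shorter than 100 bases. With windows of 50 bases they had 0 matches, and the chromosome 1 intervals at their positions were not compared. The 7 chromosome 1 copies together held 8 and 20 reads in the NK libraries and 19 and 14 in the T libraries. The sources used here do not say how reads with several equally good matches were treated, and the part of such matches in the zeros was not tested. The levels of mt-Nd4 and mt-Co1 are uncertain for the same reason. Divided by the windows of 100 bases without a match instead of by the gene length, mt-Nd4 reached 7956 normalized CPM per kilobase in place of 2898, the highest of the mRNAs, and mt-Co1 1300 in place of 841. This calculation was chosen after seeing the data.

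**Figure D4:**
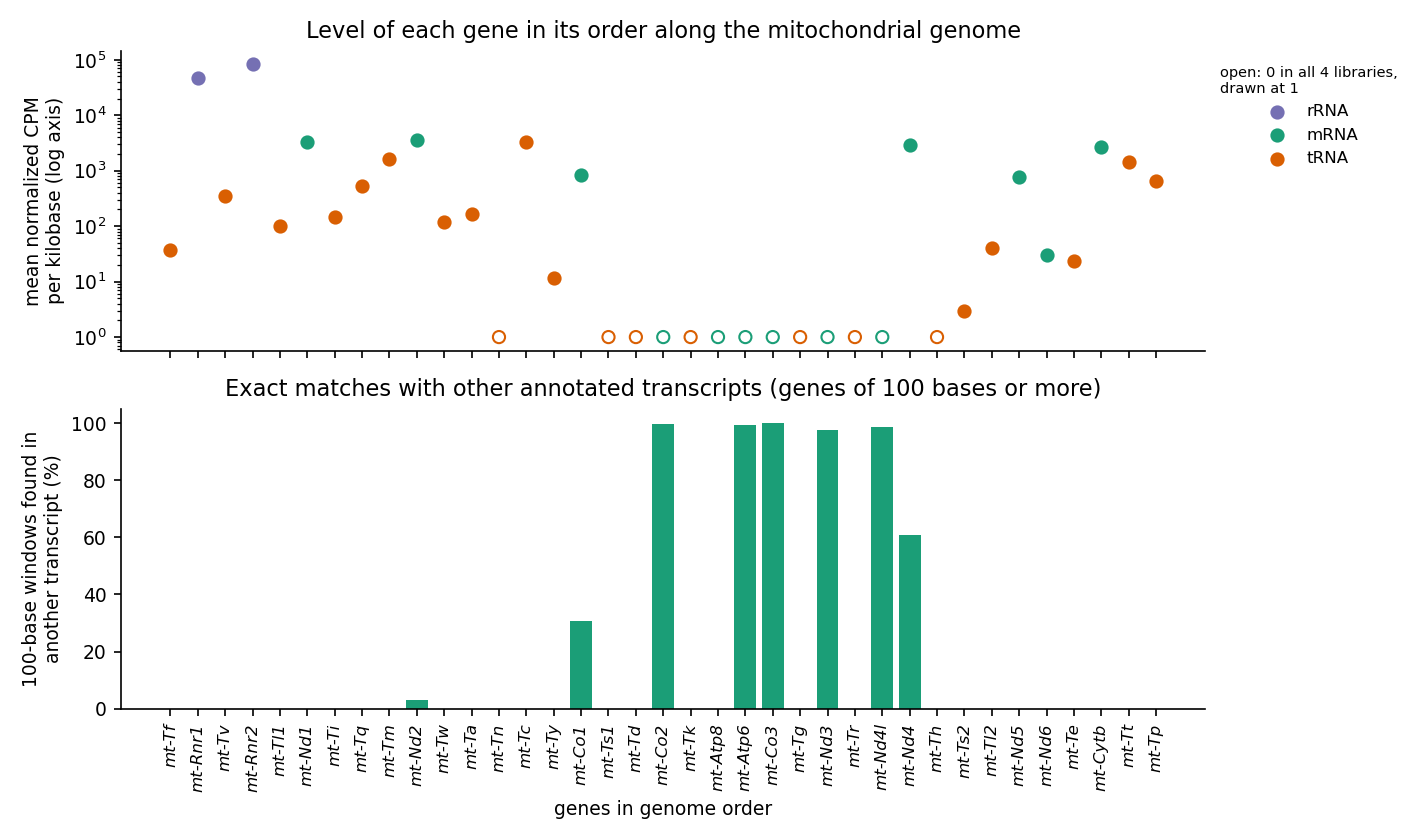
Upper panel: mean normalized CPM per kilobase over the 4 libraries (log axis) for the 37 genes in their order along the mitochondrial genome, with open symbols for genes listed at 0; lower panel: percent of each gene's 100-base windows found exactly in another annotated transcript (genes shorter than 100 bases have no bar). The 11 consecutive genes listed at 0 include the 5 mRNA genes with 97.6% to 99.9% of windows matched, and both genes flanking the run, mt-Co1 and mt-Nd4, are matched in part.

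Transfer RNA genes gave few reads, 1490 and 1417 in the NK libraries and 1283 and 1378 in the T libraries. Their annotated lengths are 59 to 75 bases, and the sources used here do not give the fragment sizes kept in library preparation. Of the 22 tRNA genes, 15 had reads and 13 reached a mean of 1 normalized CPM. The genes mt-Ty and mt-Ts2 had reads below that level, with at most 5 reads in a library. Outside the run, mt-Tn and mt-Th were also listed at 0 in all libraries. The sequences of the 3 most abundant tRNAs and of mt-Tv, whose level differed between the pools, are shown because the tRNA results turn on them, with the anticodon in capitals.
mt-Tc (chrM:5192-5257, minus strand): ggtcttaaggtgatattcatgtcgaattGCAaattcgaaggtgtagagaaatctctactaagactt
mt-Tm (chrM:3845-3913, plus strand): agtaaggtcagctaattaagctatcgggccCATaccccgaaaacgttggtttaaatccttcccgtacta
mt-Tt (chrM:15289-15355, plus strand): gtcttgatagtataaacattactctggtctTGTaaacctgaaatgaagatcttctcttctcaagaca
mt-Tv (chrM:1025-1093, plus strand): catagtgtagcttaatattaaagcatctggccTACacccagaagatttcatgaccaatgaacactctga

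The most abundant tRNA gene, mt-Tc, encodes the tRNA for cysteine, and its level was higher in pool 1 in both cell types. It stood at 298 and 165 normalized CPM in NK pools 1 and 2 and at 319 and 85.4 in T pools 1 and 2. It held 49.2% and 32.8% of all tRNA reads in NK cells and 45.1% and 17.5% in T cells. Both pool 1 libraries lay above both pool 2 libraries, and the NK and T values overlapped (log2 fold change 0.42, interval -0.78 to 1.62). The tRNA for valine between the rRNA genes, mt-Tv, stood at 31.3 and 14.9 in NK cells and at 44.6 and 6.38 in T cells. The tRNA for alanine, mt-Ta, stood at 17.9 and 5.32 in NK cells and at 18.7 and 3.54 in T cells. In all, 6 of the 13 tested tRNAs were higher in pool 1 than in pool 2 in both cell types, namely mt-Tc, mt-Tv, mt-Ta, mt-Tl1, mt-Tl2 and mt-Tf, a pattern seen in 25.5% of all genes tested. The number of mice differs between the pools, and the sources state no other difference. In the libraries, macrophage markers summed to 984 (NK) and 238 (T) in pool 1 and to 207 and 25.2 in pool 2. Red blood cell markers summed to 0 and 0 in pool 1 and to 51.1 and 4.61 in pool 2. The part of these differences in the tRNA levels was not tested.

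Within both pools, 5 of the 13 tested tRNAs had lower values in NK cells than in T cells, namely mt-Tm, mt-Tt, mt-Tp, mt-Ti and mt-Tl2, and 1 had higher values. The share of all genes with either of these patterns was not counted, so no result about tRNAs is drawn from them. Opposite directions in the pools were seen for 1 tRNA with NK above T in pool 1 and for 6 with NK below T in pool 1. Of all genes tested, 18.4% and 19.2% had these opposite directions. The methionine tRNA mt-Tm stood at 81.8 and 107 normalized CPM in NK cells and at 97.5 and 165 in T cells. The threonine tRNA mt-Tt stood at 75.7 and 94.0 in NK cells and at 94.7 and 121 in T cells. The proline tRNA mt-Tp stood at 38.2 and 39.4 in NK cells and at 54.5 and 42.2 in T cells. The groups lay apart for mt-Tt and mt-Tp but overlapped for mt-Tm. Groups thus lay apart for 3 of the 13 tested tRNAs with mt-Ti included, whereas this held for 43.4% of all genes tested. The isoleucine tRNA mt-Ti stood at 8.95 and 3.19 in NK cells and at 12.7 and 14.9 in T cells. It had the lowest limma adjusted p of the 22 genes, 0.487, with a log2 fold change of -1.19 (SE 0.63, interval -2.59 to 0.21) on 22 and 9 reads in NK cells and 23 and 42 in T cells.

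Tested tRNAs not yet given by value overlapped between the groups. The glutamine tRNA mt-Tq stood at 25.6 and 52.5 normalized CPM in NK cells and at 39.1 and 31.5 in T cells. The genes mt-Tw for tryptophan, mt-Tl1 and mt-Tl2 for leucine, mt-Tf for phenylalanine and mt-Te for glutamic acid held 0 to 31 reads in any library. Genes on the minus strand took 62.7% and 52.9% of tRNA reads in NK cells and 61.7% and 33.5% in T cells, with mt-Tc the main contributor.

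**Figure D5:**
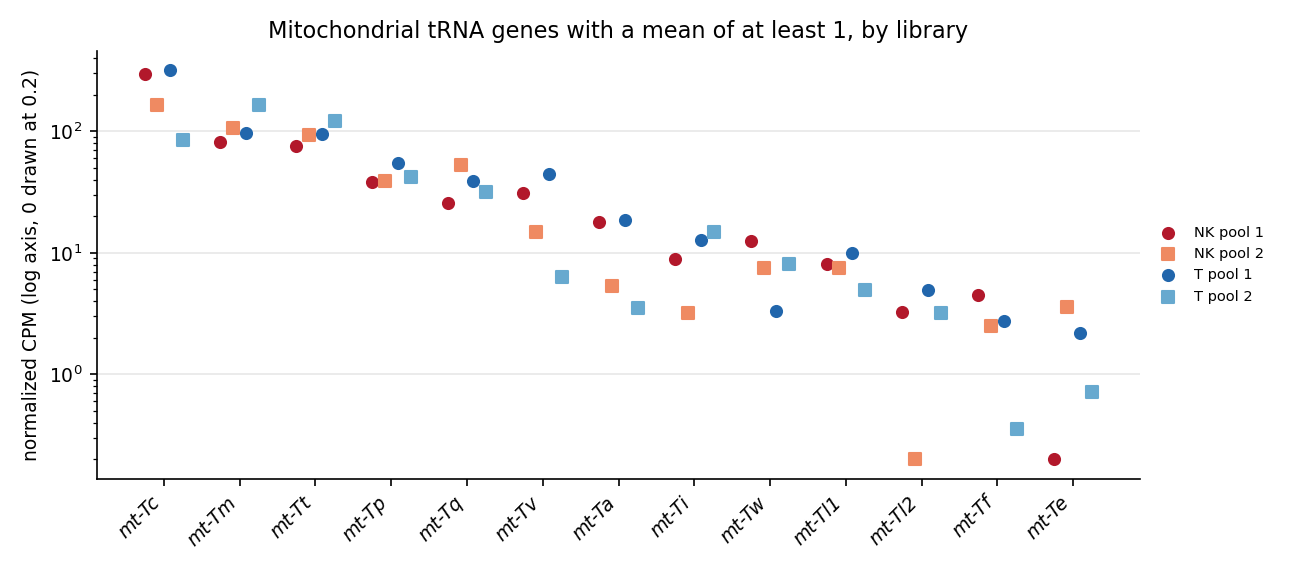
Normalized CPM (log axis, with 0 drawn at 0.2) of the 13 tRNA genes with a mean of at least 1, in order of their mean; each point is a library, red for NK and blue for T, with circles for pool 1 and squares for pool 2. For mt-Tc, mt-Tv and mt-Ta both circles lie above both squares, and for mt-Tt, mt-Tp and mt-Ti both red symbols lie below both blue symbols.

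Nuclear genes that make, process and translate mitochondrial RNA did not pass the limma test between the cell types either, and edgeR called 0 members of each list. Of 23 tested genes for mitochondrial DNA transcription and replication, 1 was higher in NK cells at an unadjusted p under 0.05, a smaller share than the 6.51% of all genes. This was Ssbp1, the single-stranded DNA binding protein of mitochondria, named here after its values were seen, at 50.4 and 27.7 normalized CPM in NK cells and at 7.71 and 24.5 in T cells (limma adjusted p = 0.348, and 0.0323 with the replicate block). Tfam, which packages mitochondrial DNA and activates its promoters, stood at 71.2 and 88.6 in NK cells and at 51.2 and 111 in T cells. Its lowest value was in T pool 1 and its highest in T pool 2, as for the mitochondrial mRNA total. NK pool 1 lay below NK pool 2 for Tfam but above it for that total. The share of all genes with such an order was not counted, and a link between Tfam and the mitochondrial mRNAs was not tested. Gabpa, a nuclear respiratory factor subunit, stood at 50.4 and 40.1 in NK cells and at 11.01 and 47.1 in T cells. The median log2 fold change of the list was -0.17 against 0.02 over all genes.

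Of 36 genes for mitochondrial RNA processing, modification and decay, 1 was lower in NK cells at an unadjusted p under 0.05, against 6.3% of all genes. It was Rexo2, an oligoribonuclease, at 42.3 and 50.7 normalized CPM in NK cells and at 115 and 68.4 in T cells (log2 fold change -0.92, SE 0.39, limma adjusted p = 0.341). Nsun2, an RNA cytosine methyltransferase, stood at 57.35 and 84.7 in NK cells and at 41.9 and 57.4 in T cells. Of 20 mitochondrial aminoacyl-tRNA synthetase genes, 0 had an unadjusted p under 0.05. Gars, which charges glycine tRNA, stood at 88.7 and 107 in NK cells and at 62.2 and 91.1 in T cells. Lars2, which charges the leucine tRNAs, stood at 72.4 and 54.6 in NK cells and at 112 and 48.9 in T cells.

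Of 76 mitochondrial ribosomal protein genes, 2 were higher in NK cells at an unadjusted p under 0.05, against 6.51% of all genes, namely Mrps15 and Mrps21, named here after their values were seen (limma adjusted p = 0.378 and 0.35). The most abundant of these genes, Mrpl33, stood at 103 and 81.9 normalized CPM in NK cells and at 66.6 and 57.8 in T cells. Mrpl18 stood at 78.9 and 66.7 in NK cells and at 59.5 and 75.8 in T cells. All 78 listed genes summed to 1827 and 1639 in NK cells and to 1482 and 1567 in T cells, and these sums were not tested. The median log2 fold change of the 76 tested was 0.20 against 0.02 over all genes.

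Of 80 nuclear-encoded subunits of the respiratory chain and ATP synthase, 8 were higher and 1 lower in NK cells at an unadjusted p under 0.05. Together this was close to the 12.8% of all genes. By direction, the higher share was above the 6.51% of all genes and the lower share below the 6.3%. With the replicate block 6 were higher and 1 lower at an adjusted p under 0.05, a share close to the 8.24% of all genes under that fit. Over all 12128 genes the same fit called 517 higher and 482 lower. The median log2 fold change of the 80 was 0.30 against 0.02 over all genes. A positive value was found for 63 of the 80, against 6175 of the 12128 genes tested. Atp5g3, of the membrane ring of ATP synthase, stood at 460 and 376 normalized CPM in NK cells and at 257 and 327 in T cells. Atp5a1, of its catalytic head, stood at 407 and 408 in NK cells and at 329 and 337 in T cells (limma adjusted p = 0.535 and 0.729). All 90 listed nuclear subunits summed to 7546 and 6583 in NK cells and to 5501 and 5778 in T cells. These sums did not overlap, as held for 43.4% of single genes tested, and they were not tested. The mitochondrial mRNA totals, from the 7 mRNA genes with reads, overlapped.

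The 5 nuclear genes whose 4 library values were most like the mitochondrial mRNA total, by Euclidean distance of centred log2 values among 6902 genes with a mean of at least 10, were Ppp1r8, Heatr1, Rpl32, Snrnp40 and Gtpbp4 (distances 0.0354 to 0.0666). Ppp1r8 stood at 21.2 and 19.5 normalized CPM in NK cells and at 14.9 and 25.9 in T cells. With 4 libraries this likeness is a description of these samples only.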

How the data were processed

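RNA sequencing libraries of total RNA from 4 samples were analysed. Per the submitters' processing notes, the tools were STAR 2.7.0f, Bowtie2 2.3.4.1, FastQC and limma, with GRCm38.p6 as the build, in no stated role. The sources used here do not give the counting tool, strand setting, normalization or any ribosomal RNA depletion. The authors deposited 1 table with a column of normalized signal for each library. Every non-zero value was a whole multiple of its library's smallest (100%, tolerance 0.001 reads), and the implied scaling factors (1.103, 1.058, 0.8782 and 0.9754) were close to recomputed TMM factors, so the signal is called normalized CPM. It is not corrected for length. The recovered reads served for shares and for the edgeR and DESeq2 alternatives.

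Symbols that were blank, NA or dates were taken from the gene name table, and of rows that share a symbol the most abundant was used. Genes with a mean of at least 1 (12128) were tested with limma 3.58.1 in R 4.3.3 on log2(value + 1), with a trend and Benjamini-Hochberg adjustment at 0.05, NK minus T. edgeR 4.0.16 and DESeq2 1.42.0 were alternatives, and the limma fit was tested on simulated data. Each p-value without the block rests on the spread between 2 pools in a group, which the tools moderate with information from all genes tested. With the replicate block it rests on how far the NK minus T difference disagreed between the pools. The replicate number ties libraries to a pool of mice in the series' design text; across genes, the pool differences of NK and T cells correlated at 0.161. The pair of libraries closest to each other, NK pools 1 and 2, still differed by more than counting error (chi-square over degrees of freedom, 13.3).

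All mitochondrial rRNAs and mRNAs, and tRNAs with a mean of at least 1, are named; nuclear lists give members past the threshold or the 2 most abundant. The lists, the members and the tests were chosen with earlier results of these data known. Coordinates and sequences come from GENCODE M21 (GRCm38), 1-based.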

Additional observations from a re-analysis of the deposited data

How the results depend on the processing

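The count of 0 mitochondrial genes past the threshold, in either direction, was the same under every alternative run: pseudocounts of 0.1 and 5, no filter and a mean of at least 5, both other library scalings, the replicate block, edgeR, DESeq2 and each library left out. Limma without any 1 library called 0 genes in all, so that check says nothing about stability. Over all genes, 150 were higher and 132 lower in NK cells. A pseudocount of 0.1 gave 51 and 47, the replicate block 517 and 482, and leaving out each library in turn 0 to 0 in each direction. Plain shares gave 84 lower and DESeq2 217 lower. Plain shares moved the median log2 fold change of all genes to 0.215. The block changed no call of a mitochondrial gene. The cause of these changes was not tested.

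Of 195 gene values under the alternatives other than leaving out a library, 7 in 4 genes changed sign. On plain shares these were mt-Nd2 (0.058) and mt-Nd5 (0.17). For mt-Tv edgeR gave -0.12 and DESeq2 -0.16, and for mt-Te, at 0 to 10 reads per library, a pseudocount of 5 gave 0.028, edgeR 0.34 and DESeq2 0.27. With each library left out in turn, 12 genes changed sign, all uncalled. Their log2 fold changes ranged from -0.10 to 0.21 for mt-Co1, -0.43 to 0.72 for mt-Cytb, -0.19 to 0.52 for mt-Nd1, -0.55 to 0.22 for mt-Nd2, -0.25 to 0.43 for mt-Nd4 and -0.53 to 0.43 for mt-Nd5. They ranged from -0.85 to 1.27 for mt-Ta, -0.52 to 1.37 for mt-Tc, -1.23 to 0.96 for mt-Te, -0.31 to 0.56 for mt-Tl1, -0.44 to 0.57 for mt-Tq and -1.01 to 1.62 for mt-Tv. Mt-Rnr1 (-0.75 to -0.33), mt-Rnr2 (-0.52 to -0.38) and mt-Nd6 (0.51 to 0.95) kept their sign.

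As log2 of NK over T, the mitochondrial share was -0.21 and the rRNA share -0.25; relative to nuclear reads they were -0.26 and -0.30, and relative to reads outside ribosomal RNA genes -0.46 and -0.51. Without each library in turn the rRNA share ranged from -0.28 to -0.22. The tRNA share was 0.13, and became 0.082 relative to nuclear reads, -0.15 without ribosomal RNA genes in the total, and -0.048 to 0.333 without each library in turn. The mRNA share was 0.19, and -0.023 without ribosomal RNA genes in the total; without T replicate 1 it was -0.20 and without T replicate 2 0.73. The mean of the within-pool ratios (replicate block) gave 0.27. Per kilobase of unmatched 50-base windows mt-Co1 stood at 1778 and mt-Nd4 at 7956 (100-base windows, 1300 and 7956). The 95% intervals of the 7 mRNA log2 fold changes lay between -0.92 and 1.83.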

Other observations

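Among the chromosome 1 copies of mitochondrial genes, reads were not spread evenly, although all 7 counts are small. Gm28438, the copy of mt-Nd3 that differs from it by T3C, held 3 and 15 reads in the NK libraries and 14 and 12 in the T libraries. Gm28439 and Gm10222, the copies of mt-Nd4 and mt-Nd4l without any difference in the bases compared, held 0 reads in all 4 libraries. Gm28661, the copy of mt-Co2, held 4 reads in NK pool 1 and 0 in the other 3 libraries. Gm28437, Gm10925 and Gm29216 held 0 to 5 reads in any library.

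The rRNA to mRNA ratio of mitochondrial reads was 8.52 and 9.13 in NK pools 1 and 2, and 17.7 and 8.92 in T pools 1 and 2, so T pool 1 stood apart from the other 3 libraries. Transfer RNA genes made up 3.43% and 2.99% of mitochondrial reads outside the rRNAs in NK cells and 5.40% and 2.25% in T cells. The mRNA reads in these ratios and percentages come from 7 of the 13 mRNA genes, since 6 were listed at 0.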
